A study of Mus musculus with 7 samples.

Results

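GATA factors, their cofactor FOG1 and the subunits of the TAL1 complex were followed at the transcript level in a mouse erythroid line that matured with or without zinc restriction. The set held 10 genes of 55367 gene symbols, chosen by name for their place in this regulatory complex: Gata1, Gata2, Zfpm1, Tal1, Lyl1, Lmo2, Lmo4, Ldb1, Tcf3 and Cbfa2t3. All 10 had a row in each of the 7 libraries and all 10 passed the filter on low values, Lyl1 through 3 control libraries and 1 DTPA library and, for DTPA against 0 h, through its 0 h level alone. The cells were G1E-ER4, a mouse erythroid progenitor line derived from Gata1-null embryonic stem cells, with a GATA1 that is joined to the hormone-binding part of an estrogen receptor, and adding estradiol sets off maturation. There were 3 libraries of cells differentiating for 24 h in 100 nM β-estradiol with 50 µM DTPA, a chelator that binds zinc and other metals, added at the start. The control group had 3 libraries of cells differentiating for 24 h in 100 nM β-estradiol without DTPA. The last group was 1 library of undifferentiated cells at 0 h, with neither agent. All cells were grown with erythropoietin and Kit ligand, all groups carry the same fusion, and all come from a single line.

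GATA1 and GATA2 are zinc finger proteins that bind the sequence GATA. In erythroid progenitors GATA2 occupies many sites that GATA1 takes over as the cells mature, an exchange known as the GATA switch, in which GATA1 also shuts down the Gata2 gene itself. FOG1, the product of Zfpm1, is a multi-zinc-finger partner that binds the amino-terminal finger of GATA1. TAL1 and its relative LYL1 are helix-loop-helix proteins that pair with E proteins such as the products of Tcf3 and bind E-boxes, and LMO2 with LDB1 bridges this pair to GATA1 or GATA2. LMO4 can also bind LDB1, and ETO2, the product of Cbfa2t3, is a corepressor of the complex.

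The deposited values were TPM, a transcript's share of the library's transcripts after division by gene length, so levels can be set side by side between genes. Estimated depths were 19.79 to 21.19 M reads under DTPA, 17.68 to 18.6 M in the controls and 17.58 M at 0 h. All 9 erythroid markers on the marker list, among them the globin genes and Alas2, were at or above 1 TPM in every library, and they summed to 62123 to 80340 TPM under DTPA, 51353 to 55622 TPM in the controls and 9902 TPM at 0 h. Hbb-bs and Hbb-bt made up most of that sum at 24 h under DTPA, at 41304 and 11076 TPM on average against 29508 and 2294 TPM in the controls, while 3 of the 9 markers were higher and 5 lower under DTPA than in the controls by limma, with a median log2 fold change of -0.33. Of all genes tested, 21.7% were higher and 36.4% lower, with a median of -0.09. Of 14 megakaryocyte markers, 6 were at 0 in all libraries, among them Vwf and Gp6. The summed level of these 14 was 107 to 119 TPM under DTPA, 36.8 to 43.9 TPM in the controls and 103.5 TPM at 0 h. The 14 mast cell and myeloid markers summed to 3.89 to 4.99 TPM under DTPA, 0.68 to 1 TPM in the controls and 12.3 TPM at 0 h, with Mpo, Cma1 and Cebpa at 0 throughout. The 5 eosinophil markers summed to 0.68 to 1.28 TPM under DTPA, 0.39 to 0.94 TPM in the controls and 0 at 0 h, and the 9 lymphoid markers to 2.56 to 2.82, 0.23 to 1.06 and 0.21 TPM. In bulk RNA, fewer cells of a type and less RNA per cell cannot be told apart.

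Promoter sequences are shown for both GATA genes, for Lyl1, whose transcript fell most, and for the 3 genes with a GATA site in a promoter, since these proteins bind DNA through short motifs. They are the 250 bases before an annotated start, 5′ to 3′ on the gene's strand, from RefSeq on GRCm38.p6, where 9 of the 10 genes matched with 16 windows in all. Capitals mark GATA sites, searched as AGATAA, then AGATAG, then TGATAA and then TGATAG, and E-boxes, searched as CANNTG, both on either strand. The Gata1 window is chrX:7967911-7968160 on the minus strand, that of Gata2 is chr6:88193641-88193890 on the plus strand and that of Lyl1 is chr8:84701207-84701456 on the plus strand. The Tal1 window is chr4:115056176-115056425 on the plus strand, that of Cbfa2t3 is chr8:122699110-122699359 on the minus strand and that of Ldb1 is chr19:46037071-46037320 on the minus strand.
Gata1: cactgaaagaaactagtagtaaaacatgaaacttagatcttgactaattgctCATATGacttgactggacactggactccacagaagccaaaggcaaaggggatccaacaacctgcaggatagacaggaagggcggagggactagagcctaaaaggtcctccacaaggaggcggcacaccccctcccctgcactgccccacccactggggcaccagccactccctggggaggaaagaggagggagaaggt
Gata2: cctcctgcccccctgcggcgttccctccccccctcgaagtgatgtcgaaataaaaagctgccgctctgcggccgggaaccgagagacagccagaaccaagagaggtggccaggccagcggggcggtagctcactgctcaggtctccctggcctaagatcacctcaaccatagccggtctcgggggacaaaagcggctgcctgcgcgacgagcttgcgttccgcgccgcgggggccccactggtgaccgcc
Lyl1: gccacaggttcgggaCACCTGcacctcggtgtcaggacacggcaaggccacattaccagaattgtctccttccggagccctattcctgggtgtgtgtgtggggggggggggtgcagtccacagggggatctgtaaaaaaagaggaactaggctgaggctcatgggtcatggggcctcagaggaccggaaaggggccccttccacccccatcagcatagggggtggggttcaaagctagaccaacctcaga
Tal1: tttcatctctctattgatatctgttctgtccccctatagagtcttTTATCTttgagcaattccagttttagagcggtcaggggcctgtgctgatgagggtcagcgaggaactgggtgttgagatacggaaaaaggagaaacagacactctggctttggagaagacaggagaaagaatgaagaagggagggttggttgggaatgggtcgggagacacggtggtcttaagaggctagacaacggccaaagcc
Cbfa2t3: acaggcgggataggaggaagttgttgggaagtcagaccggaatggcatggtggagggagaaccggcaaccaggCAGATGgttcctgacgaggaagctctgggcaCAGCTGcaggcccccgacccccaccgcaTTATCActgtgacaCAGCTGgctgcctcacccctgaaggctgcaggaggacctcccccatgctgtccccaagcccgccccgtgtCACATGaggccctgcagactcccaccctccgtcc
Ldb1: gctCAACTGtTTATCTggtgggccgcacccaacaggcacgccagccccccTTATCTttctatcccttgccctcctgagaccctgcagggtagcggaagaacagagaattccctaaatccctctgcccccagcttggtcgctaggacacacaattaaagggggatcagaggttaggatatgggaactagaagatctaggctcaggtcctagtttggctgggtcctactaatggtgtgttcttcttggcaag
A GATA site stood in 3 of the 16 windows (18.8%), those of Tal1, Cbfa2t3 and Ldb1 printed above, against 26.5% of all 32851 promoter windows of this length. An E-box stood in 8 of the 16 (50%), against 66.2% of all windows. The printed Cbfa2t3 window held 4 E-boxes and 1 GATA site, the printed Ldb1 window 1 E-box and 2 GATA sites, and the Tal1 window 1 GATA site and no E-box. The Gata1 and Lyl1 windows held 1 E-box each and no GATA site, and both Gata2 windows held neither. A match is only a run of letters, and the windows leave out enhancers. Several genes had more than 1 start, some with overlapping windows, and the gene-level values do not say which start was used.

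Against cells differentiating without DTPA, 3 of the 10 genes were higher under DTPA and 5 were lower, each at an adjusted p under 0.05 by limma on log2(TPM + 1). Of all 11147 genes tested, 58.1% were called, 21.7% as higher and 36.4% as lower, so a call alone sets none of the 10 genes apart. The values of the DTPA libraries were wholly above or wholly below those of the controls for 8 of the 10 genes, against 65.0% of all genes tested. The median log2 fold change was -0.20 over the 10 genes and -0.09 over all genes. Gata1, Tal1, Tcf3 and, on few reads, Lyl1 fell, Gata2 and Ldb1 rose, and smaller changes were called for Lmo2 and Lmo4. Zfpm1 and Cbfa2t3 did not pass. Among the 5 lower genes, Lyl1 met the filter on low values mainly through its control libraries, so its direction was set by the filter. The split of calls over all genes moved with the scaling: the all-gene median was -0.0008 with median-of-ratios scaling, where 3047 genes were higher and 3315 lower, and 0.01 with quantile normalization, with 3201 higher and 3106 lower, in place of 2415 and 4059. None of the 8 called genes changed direction with either scaling.

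**Figure D1:**
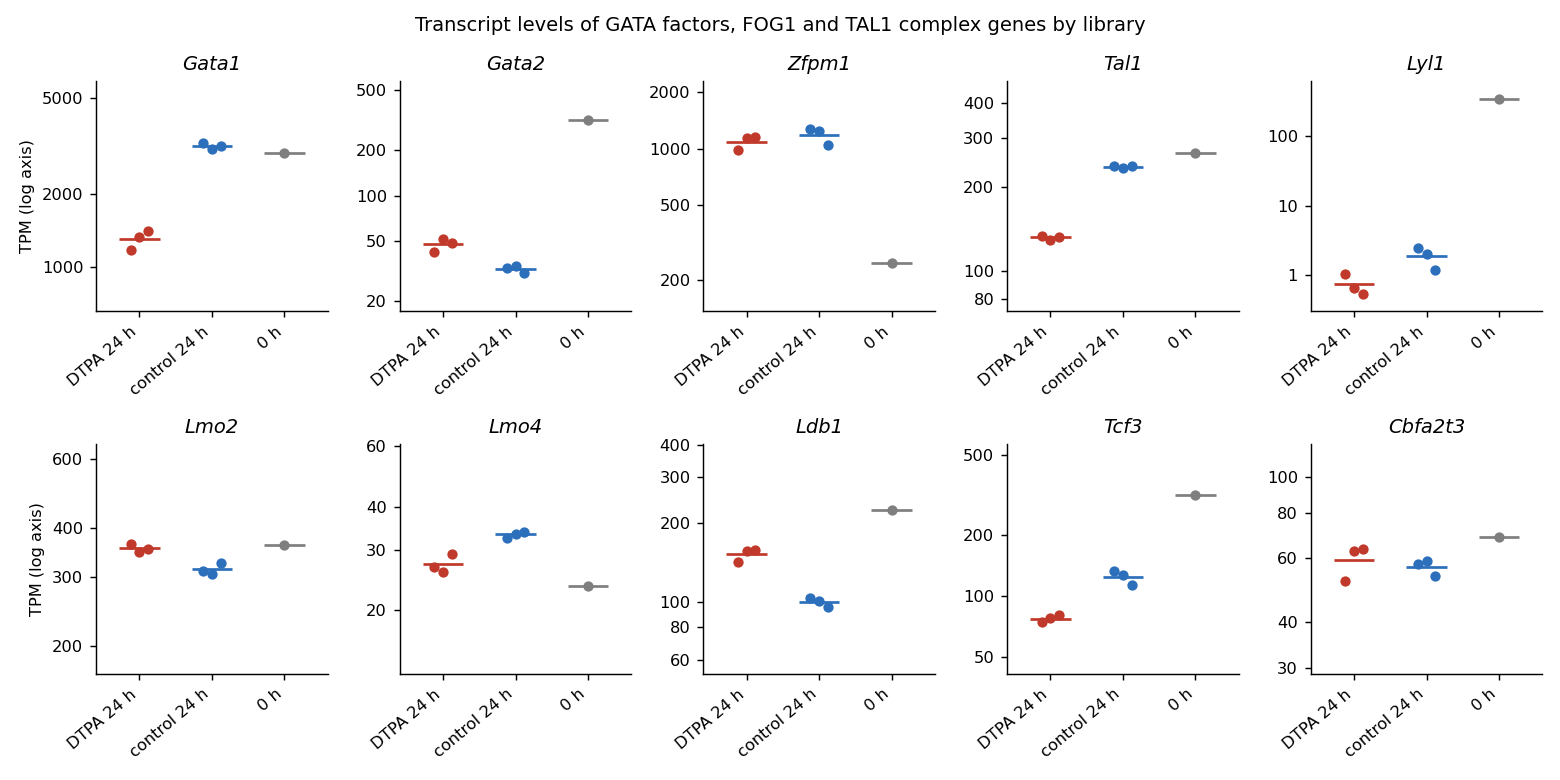
Each panel plots the TPM of 1 gene on a log axis, with 1 point per library and a line at the group mean, for DTPA at 24 h, control at 24 h and 0 h. Gata1 and Tal1 are low only in the DTPA libraries, Gata2, Lyl1 and Tcf3 are low at 24 h with and without DTPA, and Zfpm1 is high at 24 h with and without DTPA.

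Gata1 was the most abundant of the 10 transcripts in every library. Its reads can come from the targeted endogenous gene and from the introduced fusion, and the deposited tables do not separate them. Gata1 (chromosome X, 7959260 to 7978071, minus strand, GENCODE M21 on GRCm38) had 1177, 1329 and 1410 TPM in the DTPA libraries, against 3261, 3075 and 3156 TPM in the controls and 2969 TPM at 0 h. Every DTPA library lay below the controls and below the 0 h library, and the controls differed little from 0 h. Among all gene symbols its rank by TPM was 85 to 105 under DTPA, 21 to 23 in the controls and 22 at 0 h. The log2 fold change was -1.28 ± 0.07 (SE, limma adjusted p = 3.81e-06) for DTPA against control, a level 2.42-fold lower by the group means and at percentile 3.08 of the changes of all genes. It was -1.19 for DTPA against 0 h (limma adjusted p = 1.03e-04) and 0.09 for control against 0 h (limma adjusted p = 0.453). Reads of the receptor part of the fusion were not visible in the Esr1 row, the mouse estrogen receptor gene, which stood at 0.01 TPM or less in all 7 libraries. Whether such reads could align to that row was not tested, so it gives no measure of the fusion.

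Gata2 showed the opposite order at 24 h and lay far below its 0 h level in both treatments. Gata2 (chromosome 6, 88193891 to 88207032, plus strand) had 42.6, 51.6 and 48.8 TPM in the DTPA libraries, against 33.3, 34.0 and 30.9 TPM in the controls and 320 TPM at 0 h. The DTPA libraries were all above the controls, and all 24 h libraries were far below 0 h. Under DTPA the transcript was 1.46-fold higher than in the controls, or 0.52 ± 0.08 on the log2 scale (SE, limma adjusted p = 7.6e-04). Its level was 6.71-fold lower under DTPA than at 0 h, a log2 fold change of -2.72, and 9.76-fold lower in the controls than at 0 h, a log2 fold change of -3.25, with limma adjusted p = 4.44e-06 and 3.07e-06. Gata2 held 3.34% to 3.73% of the summed Gata1 and Gata2 TPM under DTPA, 0.969% to 1.09% in the controls and 9.72% at 0 h.

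A ratio of 2 genes within a library depends little on how libraries are scaled, and 5 ratios of related genes were compared, with log2 ratios taken on TPM + 1. The Gata1 to Gata2 ratio of TPM was 27.6, 25.8 and 28.9 in the DTPA libraries, against 97.8, 90.4 and 102 in the controls and 9.29 at 0 h. The DTPA libraries lay between the 0 h library and the controls, with no overlap. On the log2 scale the ratio was 4.75 ± 0.08 under DTPA and 6.55 ± 0.09 in the controls (SD, n = 3 each), a difference of -1.80 with an exact two-sided permutation p = 0.1, the smallest that 3 against 3 libraries allow, and 0.125 adjusted over the 5 ratios. Both genes contributed to this difference, Gata1 by its lower and Gata2 by its higher level. Where Gata1 is part of a ratio, reads of the endogenous gene and of the fusion were not separated.

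FOG1 transcripts rose strongly with differentiation in both treatments. Zfpm1 (chromosome 8, 122282141 to 122337251, plus strand) had 983, 1137 and 1153 TPM in the DTPA libraries, against 1277, 1239 and 1049 TPM in the controls and 245 TPM at 0 h. The DTPA and control libraries overlapped, and all of them were above 0 h. Its log2 fold change was -0.12 ± 0.09 for DTPA against control (SE, limma adjusted p = 0.285), a value that passed the threshold only under quantile normalization (-0.26, limma adjusted p = 0.0305). Against 0 h it rose 4.45-fold under DTPA and 4.85-fold in the controls, log2 fold changes of 2.14 and 2.27 with limma adjusted p = 2.86e-05 and 2.75e-05. The Zfpm1 to Gata1 ratio of TPM was 0.835, 0.855 and 0.818 under DTPA, against 0.392, 0.403 and 0.332 in the controls and 0.0826 at 0 h. So the Zfpm1 level came close to that of the Gata1 row under DTPA, a row that can hold reads of the endogenous gene and of the fusion. The log2 difference between DTPA and control was 1.16, with an exact two-sided permutation p = 0.1 (0.125 adjusted over the 5 ratios).

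**Figure D2:**
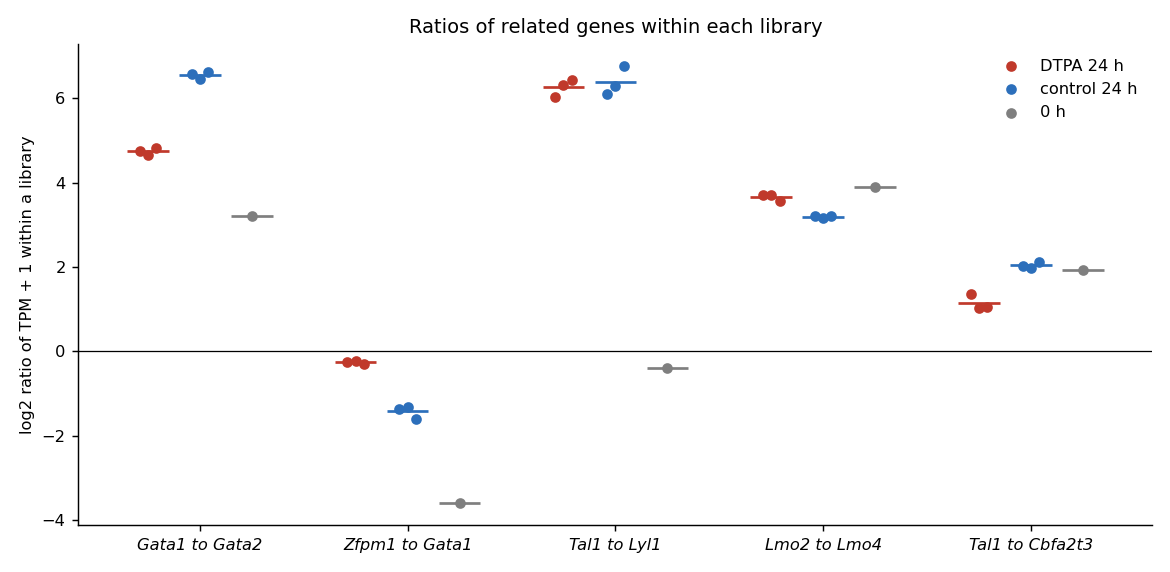
The log2 ratio of TPM + 1 of 5 gene pairs is plotted for each library, with lines at the group means, for DTPA at 24 h, control at 24 h and 0 h. The Gata1 to Gata2 ratio under DTPA, with a mean of 4.75, sits between the control mean of 6.55 and the 0 h value of 3.21, while the Zfpm1 to Gata1 ratio is highest under DTPA.

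Among the helix-loop-helix factors, Tal1 was lower under DTPA and otherwise close to its 0 h level. Tal1 (chromosome 4, 115056426 to 115071755, plus strand) had 134, 130 and 132 TPM in the DTPA libraries, against 239, 234 and 237 TPM in the controls and 265 TPM at 0 h. The spread within each group was small beside the gap between them. The log2 fold change of DTPA against control was -0.84 ± 0.03 (SE, limma adjusted p = 1.09e-06), a level 1.79-fold lower. Against 0 h it fell under DTPA by just the log2 fold threshold of 1 set for comparisons with 0 h (limma adjusted p = 2.38e-06), and this call was lost under 5 alternatives with values of -0.99 to -0.74, among them without DTPA replicate 2 (-0.99). The control value against 0 h was -0.16 (limma adjusted p = 0.00576), under that fold threshold. The promoter shown above for Tal1 is the only printed window with a GATA site and no E-box.

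Lyl1, the closest relative of Tal1, went almost silent during differentiation. Lyl1 (chromosome 8, 84701457 to 84704715, plus strand) had 1.06, 0.65 and 0.55 TPM in the DTPA libraries, against 2.51, 2.02 and 1.18 TPM in the controls and 349 TPM at 0 h. At 0 h it was the third most abundant of the 10 genes, and at 24 h it was the lowest of them in every library. The level was 463-fold lower under DTPA than at 0 h and 183-fold lower in the controls than at 0 h, with log2 fold changes of -7.65 and -6.94 on the log2(TPM + 1) scale (limma adjusted p = 3.49e-06 and 6.34e-06). In both comparisons with 0 h it was the largest fall of all genes tested, at percentiles 0.00832 and 0.0084. For DTPA against 0 h Lyl1 passed the filter through its 0 h level alone, so its direction there was set by the filter. DTPA against control gave -0.71 ± 0.23 (SE, limma adjusted p = 0.0285), from an estimated 7 to 13 reads per DTPA library and 12 to 27 per control library, against 3708 at 0 h. Here Lyl1 met the filter mainly through its control libraries, so this direction too was set by the filter. Leaving out control replicate 1 or 2 ended that call (limma adjusted p = 0.0942 and 0.0821), as did leaving out DTPA replicate 2 or 3 (0.0776 and 0.0835) and dropping the filter on low values (0.0505). Lyl1 shares 4 bp of exon with Nfix on the other strand.

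Lyl1 held 0.413% to 0.783% of the summed Tal1 and Lyl1 TPM under DTPA, 0.496% to 1.04% in the controls and 56.8% at 0 h. The log2 Tal1 to Lyl1 ratio was 6.26 ± 0.20 under DTPA and 6.38 ± 0.35 in the controls (SD, n = 3 each), with overlapping libraries and an exact two-sided permutation p = 0.7. Tal1 was the higher of the pair at 24 h in either treatment and the lower at 0 h.

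Tcf3, which encodes the E proteins E12 and E47 that pair with TAL1, fell with differentiation and was lower still under DTPA. Tcf3 (chromosome 10, 80409514 to 80433647, minus strand) had 73.8, 77.9 and 80.0 TPM in the DTPA libraries, against 132.5, 126.5 and 113 TPM in the controls and 315 TPM at 0 h. The 3 groups did not overlap. Log2 fold changes were -0.67 ± 0.07 for DTPA against control (SE, limma adjusted p = 8.21e-05), -2.02 for DTPA against 0 h (limma adjusted p = 7.15e-06) and -1.34 for control against 0 h (limma adjusted p = 4.59e-05). The other E protein genes had lower levels or smaller changes. Tcf12, encoding HEB, had 25.3 ± 1.24 TPM under DTPA, 28.9 ± 0.985 TPM in the controls (SD, n = 3 each) and 35.6 TPM at 0 h, and fell by 0.19 on the log2 scale for DTPA against control (limma adjusted p = 0.0225).

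The LIM-only genes moved in opposite directions under DTPA, both by little. Lmo2, an obligate part of the complex in early blood formation (chromosome 2, 103957986 to 103981878, plus strand), had 364, 348 and 353 TPM in the DTPA libraries, against 310, 305 and 324 TPM in the controls and 362 TPM at 0 h. Its DTPA libraries lay above the controls and on both sides of 0 h. The log2 fold change of DTPA against control was 0.18 ± 0.04 (SE, limma adjusted p = 0.00556). For DTPA against 0 h the value of -0.03 (limma adjusted p = 0.611) turned to 0.23 with median-of-ratios scaling and to 0.06 without globin genes, neither past the fold threshold.

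Lmo4 (chromosome 3, 144188530 to 144205220, minus strand) had 26.7, 25.9 and 29.1 TPM in the DTPA libraries, against 32.4, 33.3 and 33.9 TPM in the controls and 23.5 TPM at 0 h. The DTPA libraries were below the controls and above 0 h. The log2 fold change was -0.28 ± 0.06 for DTPA against control (SE, limma adjusted p = 0.00409). The Lmo2 to Lmo4 ratio of TPM was 13.6, 13.4 and 12.1 under DTPA, against 9.55, 9.16 and 9.58 in the controls and 15.4 at 0 h, a log2 difference of 0.46 between DTPA and control with an exact two-sided permutation p = 0.1 (0.125 adjusted over the 5 ratios).

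Ldb1, the dimerizing bridge that can also join enhancers to promoters, was higher under DTPA. Ldb1 (chromosome 19, 46031570 to 46045214, minus strand) had 142, 156 and 158 TPM in the DTPA libraries, against 103, 101 and 95.3 TPM in the controls and 224 TPM at 0 h. The DTPA libraries lay between the controls and the 0 h library, without overlap. Log2 fold changes were 0.61 ± 0.05 for DTPA against control (SE, limma adjusted p = 5.54e-05), -0.55 for DTPA against 0 h (limma adjusted p = 7.92e-04) and -1.16 for control against 0 h (limma adjusted p = 3.33e-05). The last value was -0.998 with median-of-ratios scaling, just under the fold threshold. Ldb1 shares 177 bp of its 4606 bp of exon with Pprc1 on the other strand, and Pprc1 was itself at 99.2 TPM at 0 h and at 6.1 TPM on average in the controls. The part of that overlap in the Ldb1 values was not tested.

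Cbfa2t3, the corepressor gene, was called in none of the 3 comparisons. Cbfa2t3 (chromosome 8, 122625141 to 122699109, minus strand) had 51.9, 62.8 and 63.4 TPM in the DTPA libraries, against 57.7, 59.0 and 53.8 TPM in the controls and 68.7 TPM at 0 h. The DTPA and control libraries overlapped, and DTPA replicate 1 was the lowest of all. The log2 fold change was 0.06 ± 0.08 for DTPA against control (SE, limma adjusted p = 0.575), and without DTPA replicate 1 it was 0.15 and passed (limma adjusted p = 0.0484). Its exons overlap Gm10612 by 295 bp on the other strand, a row averaging 0.907 TPM under DTPA and 2.35 TPM in the controls and listed at 0 at 0 h. The Tal1 to Cbfa2t3 ratio of TPM was 2.58, 2.06 and 2.09 under DTPA, against 4.14, 3.97 and 4.41 in the controls and 3.86 at 0 h. Tal1 was thus lower relative to the corepressor in all 3 DTPA libraries, by 0.89 on the log2 scale with an exact two-sided permutation p = 0.1 (0.125 adjusted over the 5 ratios).

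**Figure D3:**
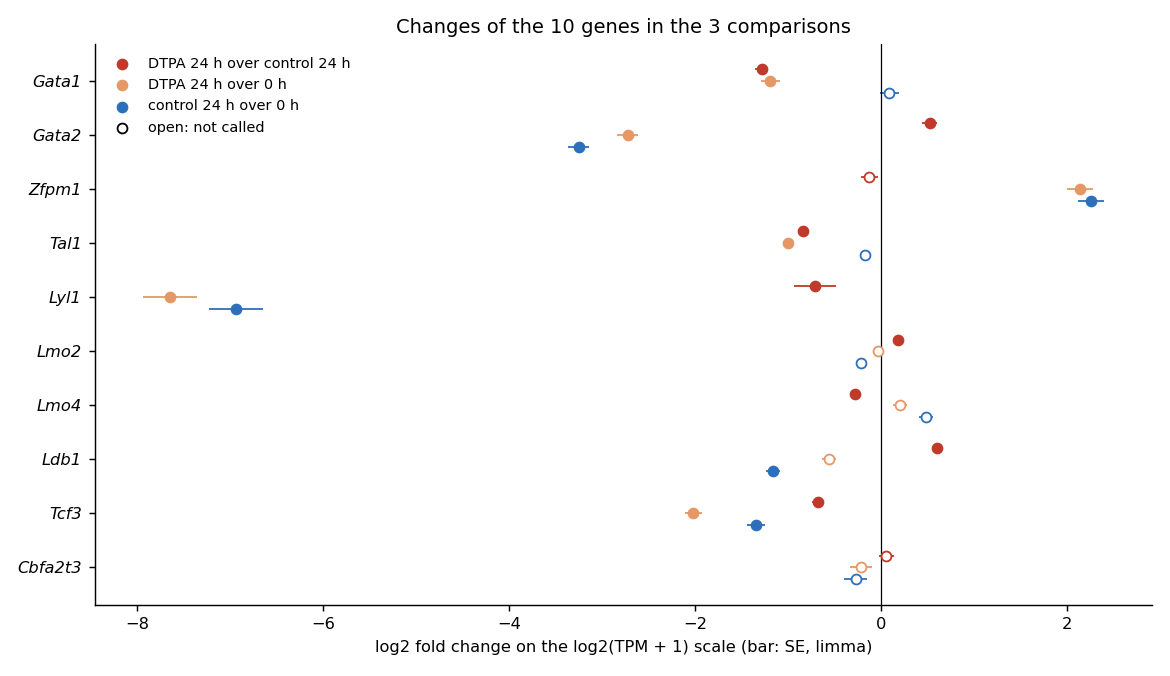
Log2 fold changes on the log2(TPM + 1) scale are plotted for each gene, with bars for the SE from limma, for DTPA over control at 24 h, DTPA over 0 h and control over 0 h, and open points were not called. Lyl1 stands apart at -7.65 and -6.94 against 0 h, Zfpm1 is above 2 in both, and Gata1 is called only in the 2 comparisons that involve DTPA.

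Set side by side over the course of differentiation, 6 of the 10 genes were called for DTPA against 0 h, where 43.3% of 12016 genes were called, and 5 of the 10 for control against 0 h, where 39.4% of 11906 genes were called. These comparisons share the 0 h library, which has no replicate, and needed a log2 fold change of at least 1 in size. Zfpm1 was the 1 gene called higher in each, where 15.7% and 15.1% of all genes were. Lower calls were made for 5 genes under DTPA against 0 h (Gata1, Gata2, Tal1, Lyl1 and Tcf3, against 27.6% of all genes) and for 4 in the controls against 0 h (Gata2, Lyl1, Ldb1 and Tcf3, against 24.3%). Among the lower calls under DTPA, the direction of Lyl1 was set by the filter. Over all genes the median was -0.30 and -0.22 on the log2 scale in these comparisons and -0.07 and -0.07 with median-of-ratios scaling, under which 4 of the 10 genes were called in each. The Gata1 value against 0 h under DTPA was then -0.93 and no longer past the fold threshold.

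The order of levels within the set also differed between groups. At 0 h, Gata1 at 2969 TPM was followed by Lmo2, Lyl1, Gata2, Tcf3, Tal1, Zfpm1 and Ldb1, all between 224 and 362 TPM, and then by Cbfa2t3 at 68.7 and Lmo4 at 23.5 TPM. In the controls the order was Gata1, Zfpm1, Lmo2, Tal1, Tcf3, Ldb1, Cbfa2t3, Lmo4, Gata2 and Lyl1, and the neighbours Lmo4, at 33.2 ± 0.721 TPM, and Gata2, at 32.8 ± 1.64 TPM (SD, n = 3 each), overlapped. Under DTPA, Ldb1 stood above Tal1 and Tcf3, at 152 ± 8.70 TPM against 132 ± 2.30 and 77.2 ± 3.14 TPM (SD, n = 3 each), and Gata2 stood above Lmo4, at 47.7 ± 4.58 against 27.2 ± 1.67 TPM (SD, n = 3 each). Gata1 and Zfpm1 remained the most abundant pair there, at 1305 ± 118 and 1091 ± 94.2 TPM (SD, n = 3 each).

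Genes around the complex were read from lists that leave out the 10 genes. Of 19 further subunits and family members, 9 were at 0 in all libraries, among them Gata4, Lmo1 and Ldb2, and 9 were tested. Under DTPA, 2 rose and 4 fell against control, with a median log2 fold change of -0.04 against -0.09 over all genes, of which 21.7% were higher and 36.4% lower. Cbfa2t2, a relative of Cbfa2t3, rose by 0.70 on the log2 scale to 15.9 ± 1.47 TPM, against 9.38 ± 0.0404 TPM in the controls (SD, n = 3 each; limma adjusted p = 1.85e-04), and Cbfb, the partner subunit of RUNX1, rose by 0.37. Ssbp2 and Ssbp4, which encode single-stranded DNA-binding proteins that stabilize LDB1, had log2 fold changes of -0.74 and -0.47 (limma adjusted p = 4.85e-05 and 0.0164), while Ssbp3, the most abundant of the 3 at 121 ± 6.92 TPM under DTPA and 118 ± 1.27 TPM in the controls (SD, n = 3 each), had 0.03 (limma adjusted p = 0.628). Runx1 fell by 0.31 and Tcf12 by 0.19. With quantile normalization 3 genes of this list were higher and 2 lower. Of 4 ID genes, whose products sequester E proteins, only Id1 was tested. It had 33.1 ± 2.96 TPM under DTPA and 46.7 ± 8.9 TPM in the controls (SD, n = 3 each; log2 fold change -0.47, limma adjusted p = 0.0212), with overlapping libraries. This call did not hold with either other scaling or without a filter on low values, nor when any of control replicates 1 and 2 and DTPA replicates 2 and 3 was left out.

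Of 13 subunits of NuRD, the remodelling and deacetylase complex that FOG1 recruits, 3 rose and 6 fell under DTPA against control, with a median log2 fold change of -0.09, that of all genes. The helicase gene Chd3 rose by 0.87 on the log2 scale to 70.1 ± 3.45 TPM, against 38.0 ± 0.60 TPM in the controls (SD, n = 3 each; limma adjusted p = 5.4e-06), while its relative Chd4 had a log2 fold change of -0.23 (limma adjusted p = 0.0027). The adaptor genes Mta1 and Mta3 rose by 0.46 and 0.23. Hdac1, Rbbp4, Rbbp7 and Hdac2, the deacetylase and histone-binding subunits, fell by 0.49, 0.44, 0.42 and 0.33. Against 0 h, 6 of the 13 were lower under DTPA and 6 in the controls, where 27.6% and 24.3% of all genes were lower, and none was higher. The list medians were -0.90 and -0.79 on the log2 scale, against -0.30 and -0.22 over all genes. Of 7 coactivator and chromatin genes, none rose and 4 fell under DTPA against control, namely Smarca4, Ep300, Brd3 and Med1, by 0.54, 0.49, 0.41 and 0.27 on the log2 scale. The median of the 7 was -0.27 against -0.09 over all genes, of which 21.7% were higher and 36.4% lower. With quantile normalization 4 NuRD genes were higher and 3 lower, and 1 coactivator gene was higher and 3 were lower.

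Genes known as GATA1 targets were split by the direction that GATA1 is known to give them. Of 24 genes listed as activated by GATA1, 7 rose and 14 fell under DTPA against control, where 21.7% of all genes were higher and 36.4% lower, with a median log2 fold change of -0.24 against -0.09 over all genes. The split was 8 higher and 11 lower with median-of-ratios scaling and 7 higher and 11 lower with quantile normalization. Against 0 h, 13 were higher and 2 lower under DTPA, and 16 were higher and 2 lower in the controls, with medians of 1.19 and 1.70. Over all genes 15.7% were higher and 27.6% lower under DTPA, and 15.1% were higher and 24.3% lower in the controls, with medians of -0.30 and -0.22. The largest falls under DTPA against control were those of Hemgn, Slc4a1, Hba-a2 and Epb42, at -3.65, -3.38, -1.13 and -1.07 on the log2 scale. The largest rises were those of Fyb, an adaptor gene of T cells and platelets, Hbb-bt, Gfi1b and Hbb-bs, at 2.40, 2.12, 1.07 and 0.48. Hemgn and Fyb were the 2 genes lower in the controls than at 0 h, at -2.04 and -1.70, so neither was induced by differentiation without DTPA. Hba-a2 and Hbb-bt can share reads with near-identical copies, so their values are uncertain. Klf1, the erythroid Krüppel-like factor gene, had 838 ± 4.79 TPM under DTPA and 814 ± 97.3 TPM in the controls (SD, n = 3 each; limma adjusted p = 0.635), and 437 TPM at 0 h.

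Of 14 progenitor genes listed as repressed by GATA1, 9 were tested under DTPA against control, of which 8 were called higher and 1 lower. In this comparison 21.7% of all genes were higher and 36.4% lower, with a median log2 fold change of -0.09. Myb, at 2.78 to 2.89 TPM under DTPA and 0.52 to 0.68 TPM in the controls, and Vim, at 2.51 to 3.55 TPM under DTPA and 0.69 to 1.01 TPM in the controls, passed the filter through their DTPA libraries, so their direction was set by it. With a filter of 5 TPM, 6 genes were tested, each above 5 TPM in all 24 h libraries, and 5 were higher and 1 lower. Of all 8781 genes tested with that filter, 2048 were higher and 3789 lower. The largest rises with at least 5 TPM were those of Kit, Spi1, Hhex and Myc, at 1.98, 1.45, 1.24 and 0.99 on the log2 scale, and the gene that fell was Bmi1, at -0.73. Myc had 30.6 ± 1.43 TPM under DTPA, 14.9 ± 0.164 TPM in the controls (SD, n = 3 each) and 474 TPM at 0 h. Against 0 h, 12 such genes were tested, of which 2 were higher and 8 lower under DTPA, and 1 was higher and 8 lower in the controls. Of all genes, 15.7% were higher and 27.6% lower under DTPA, and 15.1% were higher and 24.3% lower in the controls. Of the 8 lower genes, Erg, Il1rl1 and Rgs18 under DTPA, and these with Myb and Vim in the controls, reached a mean of 1 TPM at 0 h only, so their direction was set by the filter. The other lower genes were 5 under DTPA and 3 in the controls. Fli1, counted here and also among the megakaryocyte markers, had 51.5 ± 0.872 TPM under DTPA, 25.8 ± 2.62 TPM in the controls (SD, n = 3 each) and 10.9 TPM at 0 h. The megakaryocyte marker sums given above were higher under DTPA than in the controls, as were Gata2 and most tested genes of this list. Against 0 h the course differed under DTPA. There the sums lay above the 0 h sum, while Gata2 and 8 of the 12 tested genes of this list were lower than at 0 h. The part of megakaryocyte markers in these values was not tested.

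**Figure D4:**
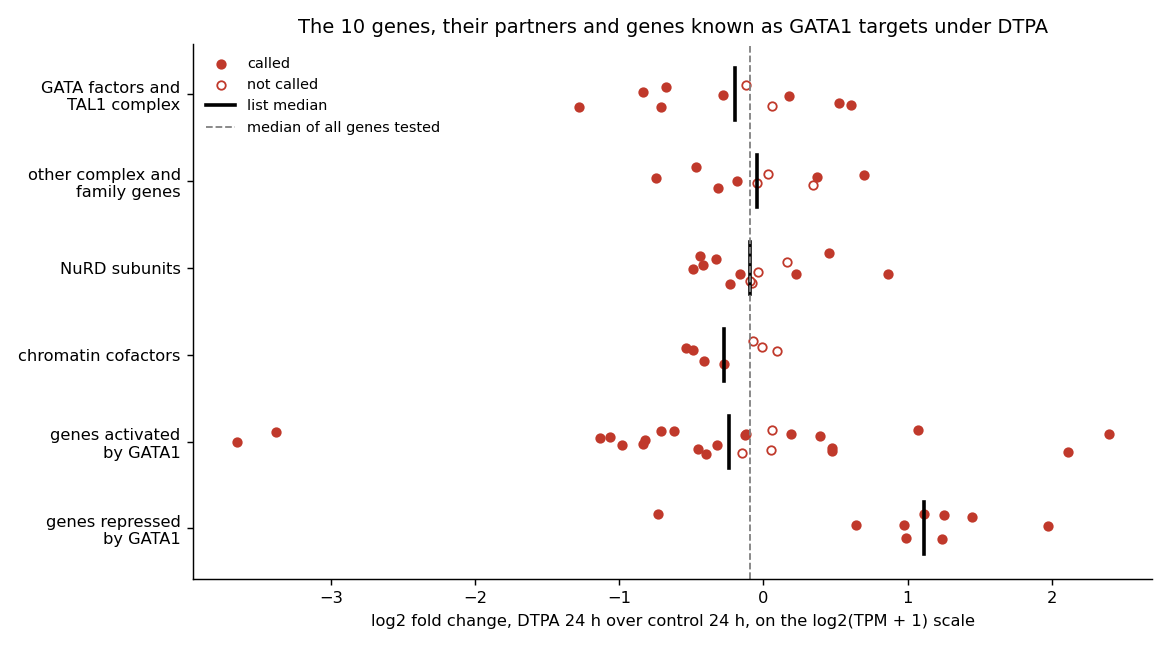
Each point is the log2 fold change of 1 gene for DTPA over control at 24 h, with rows for the 10 genes, for their partners and for genes known as GATA1 targets, filled where called, with a bar at the list median and a dashed line at the median of all genes, -0.09. Of the genes repressed by GATA1, 8 lie to the right of 0 and 1 to the left, with 2 of the 8 tested through their DTPA level, and the genes activated by GATA1 spread to both sides with a median of -0.24.

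Other transcripts followed the same course as Gata1, Gata2 and Tal1. Likeness was the Euclidean distance between log2(TPM + 1) profiles over the 7 libraries, each centred on its own mean, among 9773 genes. The nearest to Gata1 were Incenp, Pigo and Uqcc3, with distances of 0.131, 0.187 and 0.192. Incenp had 68.4 ± 4.53 TPM under DTPA, 160 ± 2.20 TPM in the controls (SD, n = 3 each) and 164 TPM at 0 h. Near Gata2 were Grik5 and Fastkd1, with distances of 0.17 and 0.268, and Grik5 had 13.4 ± 1.11 TPM under DTPA, 8.87 ± 0.724 TPM in the controls (SD, n = 3 each) and 98.3 TPM at 0 h. The nearest to Tal1 were Dynll1, Rexo2 and Zcchc8, with distances of 0.106, 0.116 and 0.12, and Dynll1 had 81.7 ± 2.55 TPM under DTPA, 154 ± 1.16 TPM in the controls (SD, n = 3 each) and 171 TPM at 0 h.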

How the data were processed

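Messenger RNA of 7 libraries was sequenced with a stranded kit, per the labels' protocols. Per the submitters' processing notes, Trimmomatic 0.33, FastQC, HISAT2 2.1.0, featureCounts and edgeR were used with build mm10. Annotation, strand setting and lengths: not given in the sources used here. TPM per gene symbol are deposited, scaled by the authors to the same total in each library.

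Rows sharing a symbol (114 symbols) were summed. The worth of 1 read was estimated from low values and GENCODE M21 exon lengths (GRCm38, the assembly of mm10). With it, 99.0% to 99.3% of the low values came to whole reads (tolerance 0.1), which gave the estimated depths. Libraries of a group differed by more than counting noise (mean chi-square per gene 3.23 to 10.5), so none was treated as a copy.

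Log2(TPM + 1) was fitted with limma 3.58.1 (R 4.3.3) and a moderated variance with trend; two-sided p-values were adjusted by Benjamini-Hochberg over all genes tested, with a threshold of 0.05. DTPA was compared with control in 6 libraries over genes that reached 1 TPM in 3 or more of them. Comparisons with 0 h fitted the 3 groups together (7 libraries), kept genes whose mean reached 1 TPM in either group compared, assumed that the single 0 h library varies like the others, and required a log2 fold change of at least 1 in size. Fold changes on this scale understate those of low genes. Ratios within a library were tested with exact permutation tests. The fits and the depth estimate were tested on simulated data. Apart from the 10 genes, the text names up to 4 called genes per list and direction with the largest change and at least 5 TPM, the 3 nearest profiles of Gata1, Gata2 and Tal1 (1 of these genes is not reported here), and single genes chosen after their values were seen (Ssbp3, Chd4, Klf1, Fli1, Pprc1, Gm10612, Myb, Vim, Erg, Il1rl1, Rgs18). The 10 genes, the lists and the tests were chosen with earlier results of these data known. Replicates are called biological in the labels, with no statement of separate cultures, so p-values measure the spread between these libraries.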

Additional observations from a re-analysis of the deposited data

How the results depend on the processing

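Alternatives were other pseudocounts, filters and scalings, no variance trend, a replicate block and each 24 h library left out. For the 10 genes in the 3 comparisons, 412 alternative values kept direction and call, 12 lost the call, 2 gained it and 3 reversed. The reversals concerned genes not called: Lmo2 for DTPA against 0 h, 0.23 with median-of-ratios scaling and 0.063 without globin genes, and Cbfa2t3 in the same comparison, 0.046 with median-of-ratios scaling; the cause was not tested. The Tal1 to Lyl1 difference between DTPA and control was 0.38 with a pseudocount of 0.1 in place of -0.12 (exact permutation p = 0.4) and ranged from -0.27 to 0.070 when a library was left out, positive without control replicate 3; the cause was not tested. The other 4 ratios kept their direction. The count of the 10 genes called stayed at 7 to 9 for DTPA against control, 4 to 5 for control against 0 h and 4 to 6 for DTPA against 0 h. Same-numbered DTPA and control libraries did not deviate together (correlations -0.01 to 0.02), and the main fit did not pair them. So few pairs cannot show whether same-numbered libraries were handled together. With the replicate block 8 of the 10 genes were called and 6162 genes in all, against 6474 without it. The smallest p of the paired ratio test was 0.25. Depth limits Lyl1 at 24 h, where a library held an estimated 7 to 27 reads.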
